A study of Mus musculus with 8 samples.

Results

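Tamarixetin given at 10 µM for 6 h was compared with control in J774.1 cells, a macrophage-like line of BALB/c mouse origin, on 4 of the 8 arrays of the series: 2 TAM arrays and 2 Ctrl arrays, chosen by their treatment labels alone. The other arrays hold 2 samples treated with isorhamnetin (IR, 10 µM, 6 h) and 2 treated with Torin1 (1 µM, 6 h), an inhibitor of the growth-controlling kinase mTOR. Every group comes from this 1 line, and the authors' design text calls the 2 samples of a group biological replicates. The labels state neither a vehicle nor a time for the control cells. Total RNA was labelled with Cy3 and hybridised to Agilent arrays of 1 colour. The comparison used probes outside the first 48 and last 48 of the 384 spot rows, which left 42526 of 56605 probes. After the removal of outlier spots and of probes not well above background on both arrays of any group, 17190 genes were tested, of which 10619 had a symbol.

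Tamarixetin and isorhamnetin are flavonols made from quercetin by adding 1 methyl group, and they are isomers that differ in which of the neighbouring hydroxyl groups carries it. Flavonols of this kind are studied in macrophages for effects on inflammatory mediators and on the antioxidant programme run by the transcription factor NRF2. NRF2 is normally held back by its partner KEAP1, and reactive compounds release it to bind antioxidant response elements near genes for glutathione synthesis, NADPH production and haem breakdown. Plant phenols are also ligands of the aryl hydrocarbon receptor, which controls enzymes that modify foreign compounds.

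Levels below are log2 signals minus the 75th percentile of the array, so that 0 is that percentile and 1 unit is a doubling. Signal was well above background for 43.9% and 44.3% of probes on the TAM arrays, against 49.0% and 48.7% on the Ctrl arrays. The lowest level that counted as well above background was -3.08 and -3.06 on the TAM arrays and -3.95 and -3.90 on the Ctrl arrays. The negative-control spots had an SD of 6.32 and 5.61 intensity units on the TAM arrays, against 3.20 and 3.06 on the Ctrl arrays. The 2 TAM arrays lay in the second row of the slide beside the Torin1 arrays, and the Ctrl arrays lay in the first row beside the IR arrays, so slide position and treatment cannot be told apart here. Replicates correlated at r = 0.994 for TAM and r = 0.998 for Ctrl across genes, which are not independent of each other. The SD of the difference between replicates was 0.38 log2 units for TAM and 0.23 for Ctrl. Of the 33 macrophage identity genes with a probe, 22, among them Cd68, Csf1r, Adgre1 and Spi1, were well above background on all 8 arrays. Another 7 were above it on none: Mertk, Cd163, Maf, C1qa, C1qc, Arg1 and Chil3. The summed linear level of the 33 genes was 1344 and 1358 times the 75th percentile on the TAM arrays, against 1404 and 1476 times on the Ctrl arrays. Of markers of other cells, Ms4a1 of B cells, Cd3d and Cd8a of T cells, Mpo of granulocytes and Col1a1 of fibroblasts were above background on none of the 8 arrays, while Cd4 and Lck of T cells, Cd22 of B cells, Elane and S100a8 of granulocytes and Acta2 of fibroblasts were above it on all, and Dcn of fibroblasts on 5. Of 11 dendritic cell and MHC class II markers with a probe, Cd74, H2-Ab1, H2-Eb1 and Siglech were above background on all 8 arrays. From that list 6, among them H2-Aa and Flt3, were above it on none. In bulk RNA, fewer cells of a type and less RNA per cell cannot be told apart.

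No gene passed the test between tamarixetin and control. Of 17190 genes, 0 had an adjusted p under 0.05 (0% called, limma with Benjamini-Hochberg adjustment), and the lowest adjusted p was 0.170. At an unadjusted p under 0.05 there were 2471 genes (14.4%), 717 higher with tamarixetin (4.17%) and 1754 lower (10.2%). Both TAM values lay above both Ctrl values for 13.7% of genes and below them for 33.1%. The median difference of all genes was -0.05 log2 units, and it was 0.00 when the arrays were scaled to their medians. Median scaling moves every difference by the same amount, so it brings this median near 0 by construction. A list median below whose sign turns with median scaling shows only that common shift.

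For most genes the arrays bounded the difference between the TAM and Ctrl groups, in which treatment and slide row are joined. The intervals use 1 estimate of spread per gene from all 4 groups. The 95% interval of the difference lay within 1 log2 unit of 0, a factor of 2 either way, for 89.6% of the genes tested. It lay within 0.5 units for 66.9%. Among the 13787 genes above background on all 4 arrays these shares were 97.4% and 80.7%, and the median SE was 0.08. Brighter genes leaned down on the chosen scale: the median difference was -0.12 for the 384 genes at a mean level of 8 or above, against -0.03 for those between 2 and 4. After quantile normalization both medians were within 0.02 of 0, at 0.00 and 0.01. The dimmest genes leaned up where they were not filtered, with a median of 0.81 over 18459 genes above background on none of the 4 arrays.

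**Figure D1:**
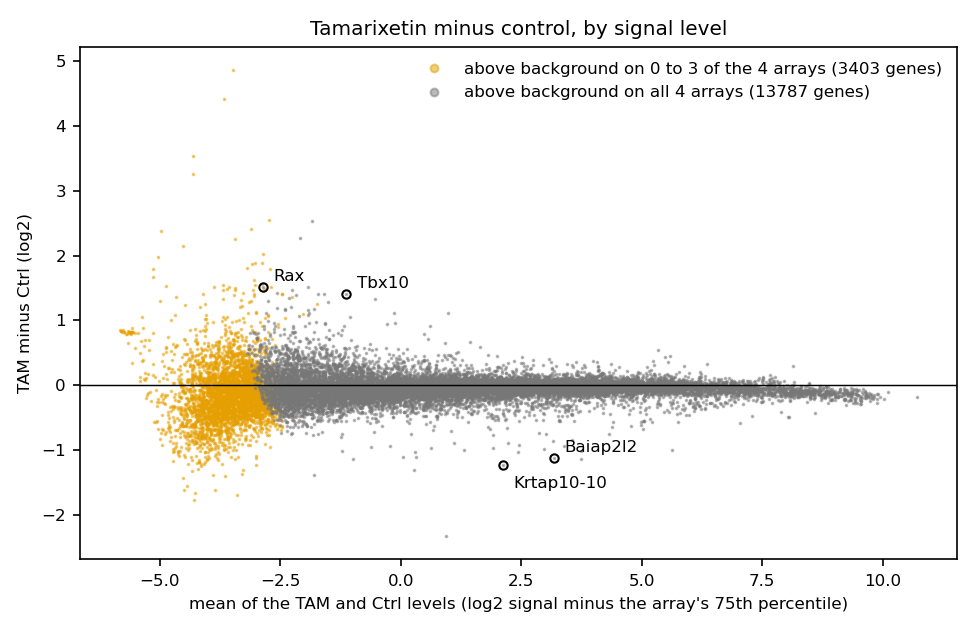
Difference between tamarixetin and control (TAM minus Ctrl, log2, vertical) against the mean level of the TAM and Ctrl arrays (log2 signal minus the array's 75th percentile, horizontal), with 1 point per gene. The 13787 genes above background on all 4 arrays lie close to 0, while the others, in orange at the dim end, spread widely, and none of the 4 circled genes passed the test.

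The 12 largest positive differences were taken from genes with a symbol, signal on all 4 arrays, an unadjusted p under 0.05 and separate TAM and Ctrl values. All came from dim probes, with mean TAM levels between -2.73 and -0.43. They hold transcription factors, a receptor and a channel with no common role. In 8 of the 12 both Torin1 arrays, from the same slide row as the TAM arrays, also read above both Ctrl arrays. Rax, a homeobox factor of the developing eye, had levels of -2.59 and -1.61 on the TAM arrays, against -3.62 and -3.60 on the Ctrl arrays, a difference of 1.51 ± 0.51 (SE; adjusted p = 0.30). Its 2 TAM arrays were almost 1 unit apart, while the 2 Ctrl arrays nearly coincided. Tbx10, a T-box factor, had -0.79 and -0.06 with tamarixetin, against -2.13 and -1.54 in control, a difference of 1.41 ± 0.32 (SE; adjusted p = 0.20). Usp24, a deubiquitinating enzyme, had -0.87 and -1.68 with tamarixetin and -2.21 and -2.29 in control. Fzd2, a receptor for Wnt proteins, had a closely matched pair, -2.66 and -2.67, with tamarixetin, against -3.37 and -3.61 in control. Trpc6, a cation channel of the plasma membrane, had -1.66 and -1.09 with tamarixetin and -1.95 and -2.21 in control. The tamarixetin replicates of Usp24 and Trpc6 were again further apart than the control replicates. Zfp280c, a zinc finger protein, had the lowest adjusted p of the 12, 0.170, with -2.63 and -2.39 with tamarixetin, against -3.07 and -3.24 in control. The others were the sperm protein gene Spa17 (difference 0.91), the kinase gene Dstyk (0.81), the muscle gene Myoz3 (0.80), and Gm10375, Gm19782 and E030024N20Rik, at 0.80, 0.75 and 0.63.

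The 12 largest negative differences reached brighter probes, but most of them also varied between replicates of the other groups. Krtap10-10, a keratin-associated protein gene of hair, had levels of 1.00 and 2.02 on the TAM arrays, against 2.75 and 2.75 on the Ctrl arrays, a difference of -1.24 ± 0.37 (SE; adjusted p = 0.26). The same probe read 2.26 and 1.55 on the IR arrays and 1.04 and 1.18 on the Torin1 arrays, so the Ctrl pair stood highest of the 4 groups. Baiap2l2, which encodes a membrane-bending protein, had 2.24 and 2.98 with tamarixetin and 3.74 and 3.72 in control, a difference of -1.12 ± 0.31 (adjusted p = 0.24). Elane, the neutrophil elastase gene, had -0.07 and 0.35 with tamarixetin and 1.17 and 1.06 in control, a difference of -0.97 ± 0.24 (adjusted p = 0.21). In 10 of the 12 genes both Torin1 arrays also read below both Ctrl arrays. In 9 of the 12 genes the second TAM array read over 0.3 units above the first, and in 10 the first IR array read over 0.3 units above the second. Across the 8 arrays, 9 of the other 11 genes followed Krtap10-10 at r above 0.9; the arrays share these probes' slide and groups, and no test is attached. Map9, Dock3, E130304I02Rik, Notum and Rbp3 had both gaps and r above 0.9, while Sall4 lacked the gap between TAM arrays (0.13) and Olfr1026 that between IR arrays (0.29). These 7 had differences between -1.03 and -0.72; Map9 encodes a microtubule-binding protein, Dock3 an activator of the GTPase Rac, and Notum an enzyme that inactivates Wnt proteins.

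Sall4, a zinc finger factor of stem cells, had the smallest SE of the 12: -0.97 and -0.84 with tamarixetin, against -0.19 and -0.19 in control, a difference of -0.72 ± 0.12 (SE; adjusted p = 0.170). Fam13c had the highest adjusted p of the 12, 0.35.

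**Figure D2:**
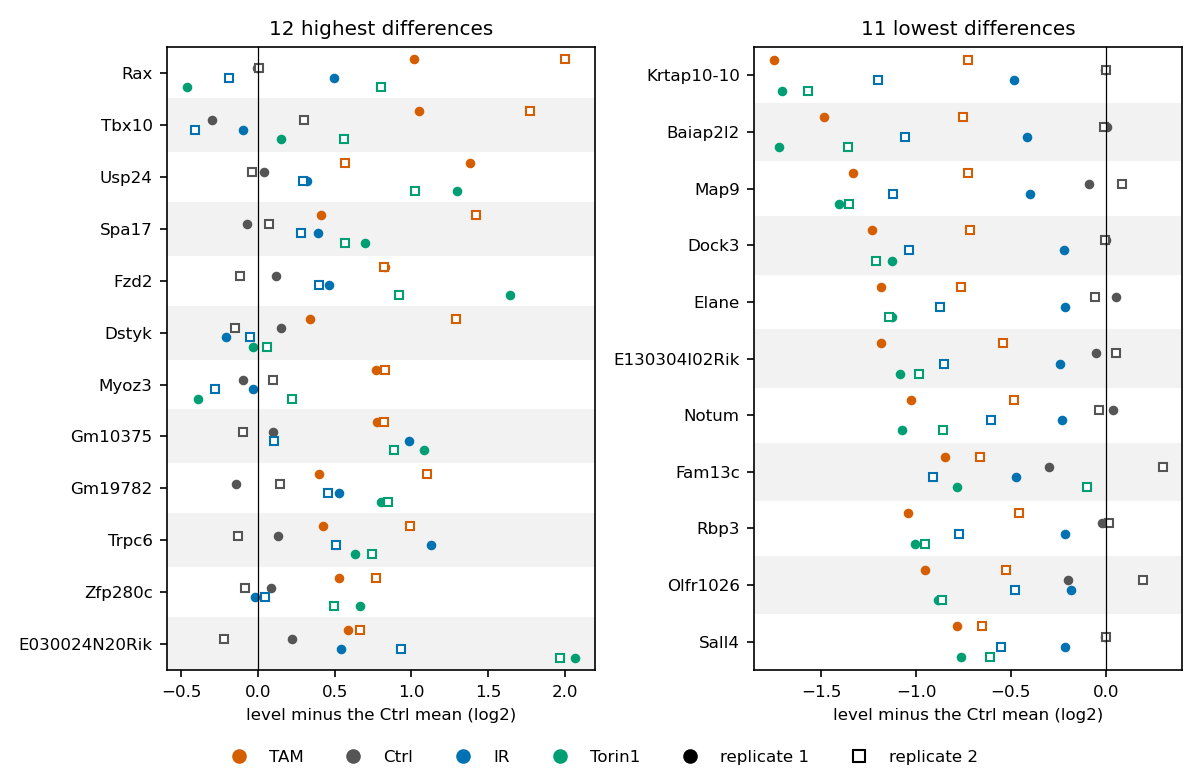
Level of each array minus the Ctrl mean (log2, horizontal) for the 12 genes with the highest (left panel) and 11 with the lowest (right panel) differences between tamarixetin and control; colours are the groups and filled circles and open squares the 2 replicates. TAM values of Rax and Krtap10-10 lie about 1 unit apart, while the Ctrl values of both genes nearly coincide.

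Some genes gave signal in only 1 of these groups. Signal was well above background on both TAM arrays and neither Ctrl array for 6 genes, and on both Ctrl arrays and neither TAM array for 1432. The background limit of the TAM arrays was also higher, as given above, and its part in this was not tested. Ptprd, a receptor tyrosine phosphatase gene, was the one with a symbol among the 4 of lowest p. It had -1.83 and -2.50 with tamarixetin, against -4.11 and -3.95 in control. That is at least 3.39-fold higher with tamarixetin, taking the lowest measurable Ctrl signal as the bound (adjusted p = 0.170). Its levels were -3.27 and -3.74 on the IR arrays and -0.75 and -0.04 on the Torin1 arrays, above background on all 4. Kdr, a receptor for vascular growth factor, was on the other side, with an adjusted p of 0.170. It read -4.39 and -4.15 with tamarixetin, not well above background, and -3.31 and -3.36 in control, which lies under the measurable limit of the TAM arrays, so no fold is given.

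Genes controlled by NRF2 lay close to control. Of 38 listed genes 30 were measured, their median difference was -0.05 log2 units, close to that of all genes, and the 95% interval lay within 0.5 units of 0 for 28 of them. Both TAM values were above both Ctrl values for 3 (all genes 13.7%) and below for 10 (all genes 33.1%). Slc7a11, the cystine transporter subunit that feeds glutathione synthesis, had -0.33 and -0.33 with tamarixetin and -0.29 and -0.20 in control, with an interval of -0.23 to 0.06. Gclm, the regulatory subunit of the first enzyme of glutathione synthesis, had 3.94 and 3.95 with tamarixetin and 3.92 and 3.86 in control (-0.09 to 0.19). Hmox1, which breaks down haem, had 5.54 and 5.25 with tamarixetin and 5.54 and 5.40 in control (-0.34 to 0.19), and its groups overlapped. For these genes a rise of 0.5 units or more lies outside the interval. Abcc1, a pump that exports glutathione conjugates, had the lowest value of the list, 2.05 and 2.02 with tamarixetin and 2.34 and 2.33 in control, a difference of -0.30 (-0.42 to -0.18, adjusted p = 0.170). Nqo1, a quinone reductase and the highest value of the list at 0.66, was above background on none of the TAM and Ctrl arrays, so its difference carries no fold. The sign of the list median turned with median scaling, where it was 0.0042; it was -0.0029 with normexp and -0.0020 with quantile normalization.

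Promoters of 3 members are shown because NRF2 binds the antioxidant response element, searched here as its core TGACNNNGC on either strand in windows of 300 bases around the gene start (RefSeq, GRCm38.p6). Capitals mark a match.
Gclm, chr3:122245307-122245606 (plus strand): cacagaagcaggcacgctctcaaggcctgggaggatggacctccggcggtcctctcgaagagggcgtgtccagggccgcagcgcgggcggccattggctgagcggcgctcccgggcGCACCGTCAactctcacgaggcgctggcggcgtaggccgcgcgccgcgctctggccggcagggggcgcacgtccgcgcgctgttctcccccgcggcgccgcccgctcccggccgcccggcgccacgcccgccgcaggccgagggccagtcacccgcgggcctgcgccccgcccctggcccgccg
Txnrd1, chr10:82858956-82859255 (plus strand): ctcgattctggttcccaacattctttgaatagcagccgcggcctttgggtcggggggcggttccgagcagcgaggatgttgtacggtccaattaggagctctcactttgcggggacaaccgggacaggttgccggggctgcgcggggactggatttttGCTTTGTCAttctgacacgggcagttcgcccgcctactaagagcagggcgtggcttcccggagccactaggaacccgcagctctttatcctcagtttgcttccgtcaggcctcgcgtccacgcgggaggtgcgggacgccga
Slc7a11, chr3:50443564-50443863 (minus strand): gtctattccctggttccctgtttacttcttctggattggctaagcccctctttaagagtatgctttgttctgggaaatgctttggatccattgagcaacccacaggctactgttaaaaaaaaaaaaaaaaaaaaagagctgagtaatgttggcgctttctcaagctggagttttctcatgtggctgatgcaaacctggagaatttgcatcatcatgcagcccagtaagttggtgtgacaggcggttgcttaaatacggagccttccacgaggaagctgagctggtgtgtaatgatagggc
Gclm and 1 of the 3 Txnrd1 windows hold 1 match each and Slc7a11 none; of all 32851 windows, 12.4% hold the core. A match is a description of the letters, not a binding site, and an element outside the window is not seen.

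The aryl hydrocarbon receptor list was thinly measured, with 7 of 14 genes. Its median was -0.04, and the sign turned with median scaling, at 0.01, while it was -0.11 with normexp and -0.18 with quantile normalization. Tiparp, a feedback target of the receptor, had 1.99 and 1.91 with tamarixetin and 2.03 and 1.94 in control, so the groups overlapped (-0.19 to 0.12). Aldh3a1, an aldehyde dehydrogenase, had 0.33 and 0.61 with tamarixetin and 0.75 and 0.89 in control (difference -0.35, adjusted p = 0.32). Cyp1b1 was not above background on both arrays of any group. Of the genes that conjugate or export flavonoids 12 of 28 were measured. Their median was -0.12 and 8 (66.7%, all genes 33.1%) had both TAM values below both Ctrl values, with 0 above (all genes 13.7%). Differences in the list ran from -0.94 to 0.01. The exporter genes Abcb1b and Abcg2 lay at its upper end, at 0.00 and 0.01, while the exporter gene Abcc1, given above, was at -0.30.

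No inflammatory mediator passed the test. Of 27 measured mediators, 12 (44.4%, all genes 33.1%) had both TAM values below both Ctrl values and 1 (3.70%, all genes 13.7%) above. At an unadjusted p under 0.05, 9 were lower, where 10.2% of all genes were, and 0 higher. Their median was -0.14, and between -0.09 and -0.05 under median scaling, quantile normalization and normexp. Csf3, the granulocyte growth factor, had -2.11 and -1.92 with tamarixetin and -1.47 and -1.50 in control, a difference of -0.53 ± 0.09 (SE; adjusted p = 0.170). Il1b, the cytokine interleukin-1 beta, had -0.02 and -0.26 with tamarixetin and 0.38 and 0.17 in control, a difference of -0.41 ± 0.16 (adjusted p = 0.32). Nos2, the inducible nitric oxide synthase, had 3.51 and 3.44 with tamarixetin and 3.80 and 3.80 in control, a difference of -0.32 ± 0.07 (adjusted p = 0.19). In all 3 genes the groups were separate, and the IR arrays of Csf3 and Nos2 read at the TAM level, at -2.17 and -2.16 and at 3.56 and 3.44. Tnf, tumour necrosis factor, had 5.69 and 5.52 with tamarixetin and 5.69 and 5.60 in control, and Ptgs2, the prostaglandin synthase COX-2, had 2.13 and 2.28 with tamarixetin and 2.20 and 2.17 in control. For both genes the groups overlapped, with intervals of -0.25 to 0.18 and -0.14 to 0.19.

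Interferon-stimulated genes had a median of -0.15 over 25 measured of 48. Both TAM values lay below both Ctrl values for 11 (44%, all genes 33.1%) and above for 0 (all genes 13.7%), and 6 were lower at an unadjusted p under 0.05 (all genes 10.2%). Ddx58, the RNA sensor RIG-I, had 1.27 and 1.09 with tamarixetin and 1.47 and 1.60 in control, a difference of -0.36 ± 0.08 (SE; adjusted p = 0.21). Isg15, a ubiquitin-like modifier, had 2.24 and 2.11 with tamarixetin and 2.34 and 2.51 in control, a difference of -0.25 ± 0.09 (adjusted p = 0.29). Ifit2 read -1.80 and -1.95 with tamarixetin and -1.86 and -2.11 in control, and the groups overlapped. The list median was between -0.10 and -0.09 under the 3 other scalings.

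Of 20 measured NF-kB subunits and feedback genes, 3 (15%, all genes 13.7%) had both TAM values above and 5 (25%, all genes 33.1%) below the Ctrl values, near the shares of all genes, with a median of -0.02 that turned to 0.03 with median scaling. Nfkbie, an inhibitor of NF-kB, had 0.72 and 0.66 with tamarixetin and 0.40 and 0.42 in control, a difference of 0.28 (0.15 to 0.42, adjusted p = 0.18). Ikbke, a kinase of the interferon pathway, had -1.68 and -1.59 with tamarixetin and -1.25 and -1.43 in control, a difference of -0.29 (-0.50 to -0.09, adjusted p = 0.24). Among 21 immediate early genes Egr2, a zinc finger factor, had 2.35 and 2.23 with tamarixetin and 2.04 and 2.05 in control (difference 0.25, adjusted p = 0.24), and Klf6 had 1.48 and 1.45 with tamarixetin and 1.65 and 1.66 in control (-0.19, adjusted p = 0.25). Fos and Dusp1, which respond to MAP kinase signalling, had differences of 0.11 and 0.12 with intervals that included 0. Egr1 had its only probe in the rows left out.

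Of the macrophage identity genes 24 of 37 were measured, with a median of -0.14, and 13 (54.2%, all genes 33.1%) had both TAM values below both Ctrl values and 2 (8.33%, all genes 13.7%) above. That median was between -0.10 and -0.08 under the other scalings. Itgam, an integrin subunit of myeloid cells, was the highest, with 4.36 and 4.48 with tamarixetin and 4.21 and 4.22 in control (difference 0.20, adjusted p = 0.43). Trem2, a lipid-sensing receptor, had 6.06 and 6.05 with tamarixetin and 6.01 and 6.01 in control. Cd74, the invariant chain of MHC class II, had 4.10 and 4.03 with tamarixetin and 4.27 and 4.31 in control (-0.23, adjusted p = 0.22). The summed level of granulocyte markers, which include Elane, was 97.6 and 114 on the TAM arrays and 103 and 109 on the Ctrl arrays, and that of T cell markers 5.06 and 5.49 against 6.24 and 6.62; their part in the low values was not tested.

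Lysosomal genes lay close to control and mostly below it. Of 39 measured, 27 (69.2%) had both TAM values below both Ctrl values, where 33.1% of all genes did, and 2 above, where 13.7% did; the median was -0.10, and -0.05 under both median scaling and quantile normalization. Sgsh, a sulfatase that degrades heparan sulfate, had 6.66 and 6.75 with tamarixetin and 6.96 and 7.04 in control, a difference of -0.30 (-0.45 to -0.15, adjusted p = 0.18). The interval lay within 0.5 units of 0 for 35 of the 39. The proton pump subunits and autophagy genes had medians of -0.02 and -0.02, with positive signs at 0.03 and 0.03 after median scaling. Sqstm1, the autophagy receptor p62, had 5.48 and 5.41 with tamarixetin and 5.44 and 5.49 in control (-0.18 to 0.15). Ctsk, the protease cathepsin K, had -1.46 and -1.47 with tamarixetin and -1.50 and -1.42 in control (-0.14 to 0.14). Mitf, a transcription factor that controls lysosomal genes, had 2.04 and 1.91 with tamarixetin and 1.77 and 1.81 in control (0.19, adjusted p = 0.29), and its relative Tfeb had -0.68 and -0.53 with tamarixetin and -0.46 and -0.20 in control (-0.28, adjusted p = 0.38). Flcn, which controls these factors at the lysosome, had 1.72 and 1.75 with tamarixetin and 1.75 and 1.91 in control.

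Ribosomal protein genes had a median of -0.11 over 72 measured, and 40 of them (55.6%, all genes 33.1%) had both TAM values below both Ctrl values and 0 (all genes 13.7%) above. All of these are bright, with mean levels from 7.61 to 9.91 and 62 of the 72 at 8 or above, where the median of all genes was itself -0.12. After quantile normalization the list median turned to 0.02. Cholesterol synthesis genes had a median of -0.06 over 24; Mvd, which makes isopentenyl diphosphate, had 1.92 and 1.88 with tamarixetin and 2.20 and 2.15 in control (-0.28, adjusted p = 0.18). Among the lipid-handling genes, median -0.10 over 22, the lipoprotein lipase Lpl had 5.79 and 5.73 with tamarixetin and 5.65 and 5.72 in control. Glycolysis, oxidative phosphorylation, DNA replication and mitosis lists had medians between -0.07 and -0.05, of which that of oxidative phosphorylation turned to 0.03 with quantile normalization. Every oxidative phosphorylation and DNA replication interval, 36 and 29 genes, lay within 0.5 units of 0. The ATF4 amino-acid response had a median of -0.06 over 30, with Asns, asparagine synthetase, at 7.25 and 7.22 with tamarixetin and 7.28 and 7.32 in control. Heat shock and unfolded protein lists had medians of -0.04 and -0.04, both positive with median scaling (0.01 each). Hsp90ab1, a cytosolic chaperone, was at 8.46 and 8.48 with tamarixetin and 8.68 and 8.67 in control (-0.20, adjusted p = 0.22). Ndrg1, a hypoxia-induced gene, varied between TAM arrays, at 3.30 and 2.72, against 3.64 and 3.47 in control.

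**Figure D3:**
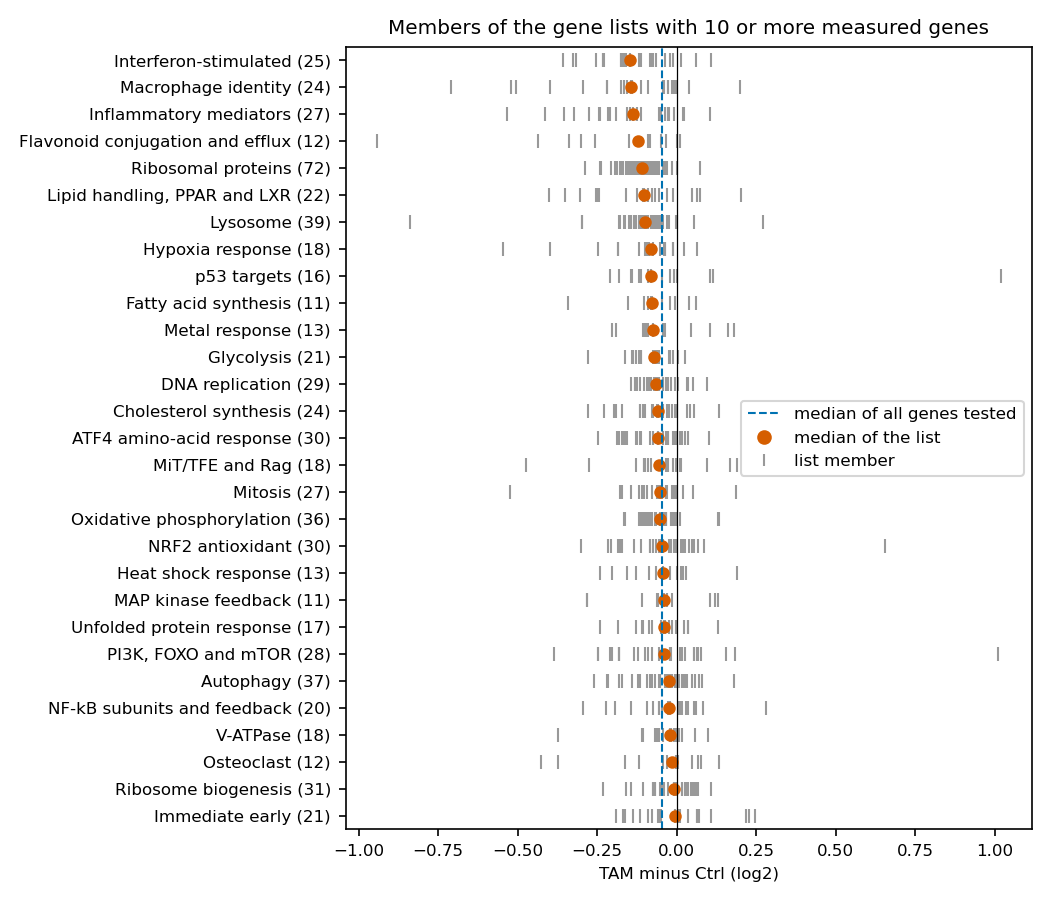
Difference between tamarixetin and control (TAM minus Ctrl, log2, horizontal) for the members of each gene list with 10 or more measured genes (number in brackets); grey ticks are genes, orange points list medians and the dashed line the median of all 17190 genes, -0.05. List medians lie between -0.15 and -0.01, and no member passed the test.

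Tamarixetin and isorhamnetin were matched in dose and time, the 1 such pair in the series. They were not matched in slide row. The IR arrays lay in the first row and the TAM arrays in the second, so compound and slide row cannot be told apart here either. The TAM and IR arrays differed in 100 of 17190 genes (0.582% called). Of these, 88 were lower with tamarixetin (0.512%) and 12 higher (0.0698%). In 61 of the 88 all TAM and IR arrays measured the gene, and in 27 only the IR arrays did. For those 27 the TAM values lay below background, so their calls are not counted as support here. The mean IR level of some, such as Il7r (-3.37) and Slc22a4 (-3.84), also lay under the measurable limit of the TAM arrays (-3.07). That of others, such as Treml4 (-1.57), lay above it. Over the 61 genes the median difference from IR was -0.69, while their median difference from control was -0.07. For 59 of the 61 the 95% interval of TAM minus Ctrl lay within 0.5 units of 0. It included 0 for 40 of the 61 and excluded it for the others. Such an interval excludes 0 where the unadjusted p is under 0.05, as for 14.4% of all genes. All comparisons here share the TAM arrays, so the differences from control and from IR are given side by side only.

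The NRF2 genes made up 13 of the 88, of 30 measured (all genes 0.512%), and 0 were higher with tamarixetin (all genes 0.0698%). The 13 include Nqo1, which had no measurable tamarixetin signal. Slc7a11 read -0.33 and -0.33 with tamarixetin, against 1.38 and 1.34 with isorhamnetin, a difference of -1.69 ± 0.06 (SE; adjusted p = 0.0027). Gclm, with the match shown above, read 3.94 and 3.95 with tamarixetin, against 5.29 and 5.32 with isorhamnetin, a difference of -1.37 ± 0.06 (adjusted p = 0.0041). Hmox1 read 5.54 and 5.25 with tamarixetin, against 6.70 and 6.72 with isorhamnetin, a difference of -1.31 ± 0.11 (adjusted p = 0.017). Txnrd1, thioredoxin reductase, read 5.50 and 5.43 with tamarixetin, against 6.09 and 6.07 with isorhamnetin, a difference of -0.61 ± 0.06 (adjusted p = 0.019). The groups were separate in each of these genes, and both TAM values lay below both IR values for 25 of the 30, where they did for 30.3% of all genes. Nqo1 was above background on the IR arrays only and passed the filter through them. Its call therefore supports nothing and is left out of the stability counts below. Its level with tamarixetin was at least 1.22-fold lower. Cbr3, Cat, Abcc1, Gclc, Blvrb, Gsr, Akr1b8 and Pgd were also lower, by 1.17 to 0.58 on the log2 scale. Of the 13 genes, 9 had promoter windows, 13 windows in all. The core occurred in 3 of these windows, 1 each of Gclm, Pgd and Txnrd1, and in 12.4% of all windows. Without the second IR array none of the 100 genes passed (lowest adjusted p = 0.058), and with any 1 of the other 7 arrays left out Slc7a11 and Gclm still passed. The rest were less stable: of the 8 fits with 1 array left out, Cbr3 and Abcc1 passed in 4, Hmox1, Cat, Gclc and Blvrb in 2, Txnrd1 in 1, and Gsr, Akr1b8 and Pgd in 0. Fitted with these 2 groups only, 1 gene passed.

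**Figure D4:**
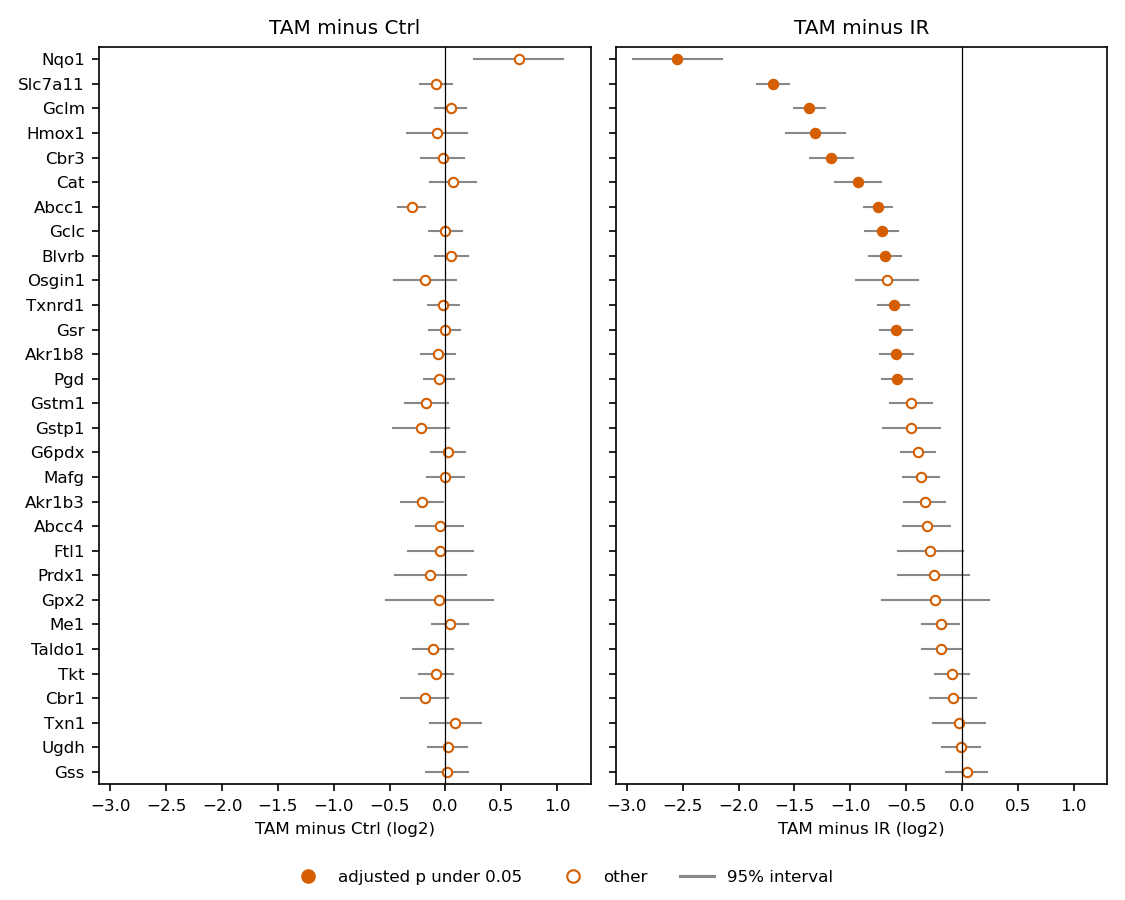
Differences of the 30 measured NRF2 genes between tamarixetin and control (left) and between tamarixetin and isorhamnetin (right), log2 with 95% intervals; filled points have an adjusted p under 0.05. On the left 28 intervals lie within 0.5 units of 0 and none is filled, and on the right 13 points are filled, all below 0.

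Of other lists, 0 of 24 macrophage identity genes, 1 of 27 inflammatory mediators, 1 of 37 autophagy genes and 2 of 39 lysosomal genes were lower with tamarixetin. Of all genes 0.512% were. Ptgs2 read 2.13 and 2.28 with tamarixetin, against 3.01 and 3.02 with isorhamnetin (-0.81 ± 0.07, SE, adjusted p = 0.017). Sqstm1 read 5.48 and 5.41 with tamarixetin, against 6.17 and 6.28 with isorhamnetin (-0.78 ± 0.07, adjusted p = 0.018). Lipa, the lysosomal acid lipase, read 4.0008 and 3.9786 with tamarixetin, against 4.97 and 4.87 with isorhamnetin (-0.93 ± 0.06, adjusted p = 0.0097). Treml4, a receptor of the TREM family that passed the filter through the IR arrays alone, was below background with tamarixetin and at -1.61 and -1.52 with isorhamnetin, at least 2.84-fold lower with tamarixetin. Of the 12 genes higher with tamarixetin, 4 were measured on all 4 arrays and 6 on none. Rtp4, an interferon-induced gene, read 2.67 and 2.44 with tamarixetin, against 1.74 and 1.69 with isorhamnetin (0.84 ± 0.10, adjusted p = 0.043). Its Ctrl arrays read 2.77 and 2.97, above the TAM arrays. It was the only one of 25 interferon-stimulated genes to pass in either direction (all genes 0.582%). The median difference from isorhamnetin over these 25 genes was 0.31, where that of all genes was -0.05. Ddx58 had 0.64 ± 0.08 with an adjusted p of 0.052. Eps8, a signalling adaptor, read 0.88 and 0.85 with tamarixetin and 0.36 and 0.44 with isorhamnetin (0.46 ± 0.06, adjusted p = 0.043). Of the 8 fits with 1 array left out, Lipa passed in 6, Ptgs2 in 2, Sqstm1 and Rtp4 in 1 and Eps8 in 0. Where no difference was called, the interval bounds it: for Nos2 it ran from -0.19 to 0.14, for Flcn from -0.11 to 0.26 and for Asns from -0.34 to 0.02.

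Tamarixetin at 10 µM differed from Torin1 at 1 µM in 7562 genes (44% called), 4175 higher (24.3%) and 3387 lower (19.7%). The doses of the 2 compounds differ. Ctsk read -1.46 and -1.47 with tamarixetin, against 2.99 and 2.98 with Torin1 (-4.44 ± 0.06, SE, adjusted p = 4.2e-06). Sqstm1 read 5.48 and 5.41 with tamarixetin, against 7.31 and 7.39 with Torin1 (-1.90 ± 0.07, adjusted p = 4.4e-05). Of 39 lysosomal genes 27 were lower than with Torin1 and 1 higher, of 24 cholesterol synthesis genes 22 were higher and 0 lower, and of 72 ribosomal protein genes 0 passed in either direction.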

How the data were processed

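Per the file headers, the arrays were read in 1 channel with Agilent Feature Extraction 10.7.1.1, and the processed signal is an intensity with background subtracted and spatial trend removed. The authors' value table is on a log2 scale: for 99.9% of 56605 probes its entries matched log2 intensity minus the 75th percentile of the array and the median of the probe over 8 arrays, within 0.01. All 8 arrays lay on 1 slide and 1 scan, so neither could be a block.

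Outlier spots were dropped (90 probes) and spots of a probe averaged. Probes needed signal well above background on both arrays of some group. Symbols came from RefSeq accessions (32994 probes, GRCm38.p6); 1 probe per gene, the brightest, was used. The model was limma's (version 3.58.1, R 4.3.3), all 8 arrays in 1 fit with 4 residual degrees of freedom, two-sided, with Benjamini-Hochberg adjustment over all genes and a threshold of 0.05. The fit was tested on simulated data. Exact tests of 2 arrays against 2 cannot reach 0.05, and the number of arrays limits the precision. The members, the 35 gene lists (726 of 1005 genes measured) and tests were chosen with earlier results of these data known. Named genes are the 12 highest and 12 lowest differences (separate groups, unadjusted p under 0.05), up to 4 bounds per direction, up to 4 members per list, a panel of 20 genes and genes called; 16 of the panel were measured. Not all of these are printed, and some items are not reported here. Alternatives concerned edge rows, background, scaling, filter, probe choice, variance model, samples fitted, replicate block, the authors' values and each array left out.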

Additional observations from a re-analysis of the deposited data

Results flagged for a closer look

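Probes in the 48 spot rows at each edge were outside the comparison, whose rule treats signal at the array edge as unreliable. With all rows kept, 17 genes passed between tamarixetin and control, and 16 of them came from edge-row probes, 14 higher with tamarixetin and 2 lower. Most read near the floor in control and well above background with tamarixetin. Fmo1, a flavin monooxygenase, read -1.80 and -0.68 with tamarixetin, against -6.05 and -5.95 in control (adjusted p = 0.033, limma). Ctxn1 read -2.18 and -1.20 with tamarixetin, against -5.90 and -6.00 in control (adjusted p = 0.044). Dpy19l3 read -1.96 and -2.55 with tamarixetin, against -5.31 and -5.56 in control (adjusted p = 0.024). Septin14 went the other way, at -5.22 and -5.22 with tamarixetin, against -2.52 and -1.79 in control (adjusted p = 0.033). Fmo1, Ctxn1 and Dpy19l3 were above background on both TAM arrays and neither Ctrl array, and Septin14 was the reverse. The IR and Torin1 arrays read near the floor for these genes, so each passed the filter through the group where it was high. Their adjusted p values are not counted as support. Of the 8 genes with a symbol, 3 also had a probe in the rows used, and none of those probes was above background on the TAM or Ctrl arrays. The other Fmo1 probe read -5.28 and -5.26 with tamarixetin, against -6.11 and -6.05 in control. That of Dpy19l3 read -5.22 and -5.23 with tamarixetin, against -6.09 and -6.02 in control, and that of Septin14 -5.10 and -5.06 with tamarixetin, against -5.94 and -5.83 in control. These genes were named after their values were seen, and for the others the part of the array edge was not tested.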

How the results depend on the processing

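Between tamarixetin and control the count of genes passing, 0 as reported, was also 0 with 96 rows left out at each edge, normexp, median scaling, signal required on all 8 arrays, probes averaged, only these groups fitted, and the authors' values. It was 17 with all rows, 3 with 24 rows left out, 1 with quantile normalization, 22 with a trended robust variance (7 higher, 15 lower) and 10712 with no filter, of which 10246 were higher. With 1 array left out it ranged from 0 to 57: 46 without the first TAM array and 57 without the second, 4 of them shared, and 0 otherwise; the lone TAM array is then assumed to vary like the other groups. Against isorhamnetin, 100 as reported, it was 178 with all rows, 62 with median scaling, 189 with a trended robust variance, 11880 with no filter, 1 with only these groups fitted, and 0 to 119 with 1 array left out: 0 without the second IR array, 12 without the first IR array or either Torin1 array, 21 without either Ctrl array, 116 and 119 without the first and second TAM array. Against Torin1, 7562 as reported, it was 4715 with no filter and 5407 to 7164 with 1 array left out. Cgref1 and Gm2848, above background on none of the TAM and IR arrays, turned to -0.122 and -0.0592 with normexp, and Htr2b to -0.160 with quantile normalization, all against isorhamnetin. The cause was not tested.

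Replicate numbers carry no stated pairing, and the deviations of same-numbered arrays correlated at 0.13 for Ctrl and TAM and -0.17 for IR and TAM. With the replicate block, 0 genes passed against control, 2 against isorhamnetin and 6809 against Torin1. Signal over background limits the dim genes: with no filter, values at the floor of each array are compared.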

Other observations

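Under the trended robust variance model, 22 genes passed between tamarixetin and control, 21 of them above background on all 4 arrays, and 5 of the 22 had a symbol. Cldn11, a tight junction protein gene, read -0.58 and -0.82 with tamarixetin, against -0.11 and -0.04 in control (adjusted p = 0.049, limma). Lsm14b, an RNA-binding protein gene, read 1.126 and 1.0975 with tamarixetin, against 1.63 and 1.72 in control (adjusted p = 0.049). Hmgb1, a chromatin protein gene, read 6.04 and 6.04 with tamarixetin, against 6.44 and 6.36 in control (adjusted p = 0.049), and Arhgef15 read 3.21 and 3.34 with tamarixetin, against 3.62 and 3.70 in control (adjusted p = 0.049). Hmgb1 has many near-identical retrocopies in the mouse genome, so its probe may read more than 1 locus. Dcc, a netrin receptor gene, was the one higher with tamarixetin, at 5.83 and 5.81, against 5.34 and 5.39 in control (adjusted p = 0.049). Its levels were 5.87 and 5.73 on the IR arrays and 6.19 and 6.02 on the Torin1 arrays, also above both Ctrl arrays. For Lsm14b, Hmgb1 and Arhgef15 the IR and Torin1 arrays all read below both Ctrl arrays too. For Cldn11 they all read above both Ctrl arrays. All 5 missed the threshold in the fit of the report, and they were named after their values were seen.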
